A study of Mus musculus with 8 samples.

Results

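Levels of 51 genes of mitosis, the kinetochore and cytokinesis were compared between contused and control mouse spinal cord. The genes were taken by symbol from a fixed list, as mRNA probes with a RefSeq NM accession whose gene name, or symbol matched through RefSeq, is on that list. All 51 were measured, out of 18198 genes with a tested mRNA probe, and they had 124 probes between them. The contusion group held 4 female mice aged 8 weeks with a blunt injury of the thoracic cord, collected as the T9 to T10 segments around the lesion. Their titles give 3 days after injury, but the descriptions say 4 days for replicate 2, 5 days for replicate 3 and 6 days for replicate 4. The control group held 4 female mice of the same age and cord level, called sham-operated in the design text and normal in the sample descriptions. Each mouse gave 1 Agilent single-colour array with probes for mRNAs, lncRNAs and circRNAs, and the labels name no strain, transgene or drug.

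Mitosis shares the copied chromosomes out between daughter cells. Cyclin-dependent kinase 1 with cyclins A and B starts it, kinetochores built on centromeres tie the chromosomes to spindle microtubules, and a checkpoint holds back the anaphase-promoting complex until every kinetochore is attached. The central spindle and a contractile ring then cut the cell apart. Most of these genes are transcribed only late in the cell cycle, so their mRNAs are scarce in tissue whose cells rarely divide, such as the adult cord. After cord injury, microglia, infiltrating myeloid cells, glial precursors, astrocytes and vascular cells are known to divide.

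A gene's level is the log2 processed intensity of its brightest probe minus the array's 75th percentile, so 0 is that percentile. Each difference subtracts the control mean from the contusion mean and is given in log2 units ± limma's standard error (n = 4 arrays a group), adjusted p-values are limma's with Benjamini-Hochberg adjustment over 89139 RNAs, and a gene was called at an adjusted p under 0.05. The share of probes well above background ran between 72.9% and 75.4% over the arrays, and no spot was saturated. The arrays came from a pair of slides, each scanned as a set: slide 1 held contusion 1 with controls 2, 3 and 4, and slide 2 held contusions 2, 3 and 4 with control 1. Within the contusion group, slide therefore cannot be told apart from described day 3 against the later days, while described days 4, 5 and 6 shared slide 2. Oligodendrocyte markers, which define cord white matter, were well above background on every array for 8 of 8 genes, and neuronal markers for 7 of 7. The 9 skeletal muscle markers averaged 4.13 and 2.33 on contusions 1 and 2, -0.26 and -0.29 on contusions 3 and 4, and between -1.15 and 1.00 on the controls. In bulk tissue, fewer cells of a type and less RNA per cell cannot be told apart.

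Nearly all of the 51 genes were higher in contused cord. In all 48 rose, Anln and Cit fell, and Bub1 was not called on its brightest probe, against 25.8% of all tested mRNAs called higher and 25.4% called lower. The 48 rises had a median of 8.74-fold and ran from 2.18-fold for Ncapd2, a condensin subunit, to 19.6-fold for Melk, a kinase of dividing cells. Of these, 30 exceeded 8-fold, a size that 0.956% of all tested mRNAs reached. The groups did not overlap for any of the 48, with every contused cord above every control cord, as was so for 26.6% of all mRNAs, and Cit was lower without overlap, as were 25.2%. The median difference over the 51 genes was 3.11 on the log2 scale, beside 0.00 over all tested mRNAs. In control cord 47 of the 48 were well above background on all 4 arrays, so these folds rest on a measured control signal, and Kif2c was so on 2 of 4.

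**Figure D1:**
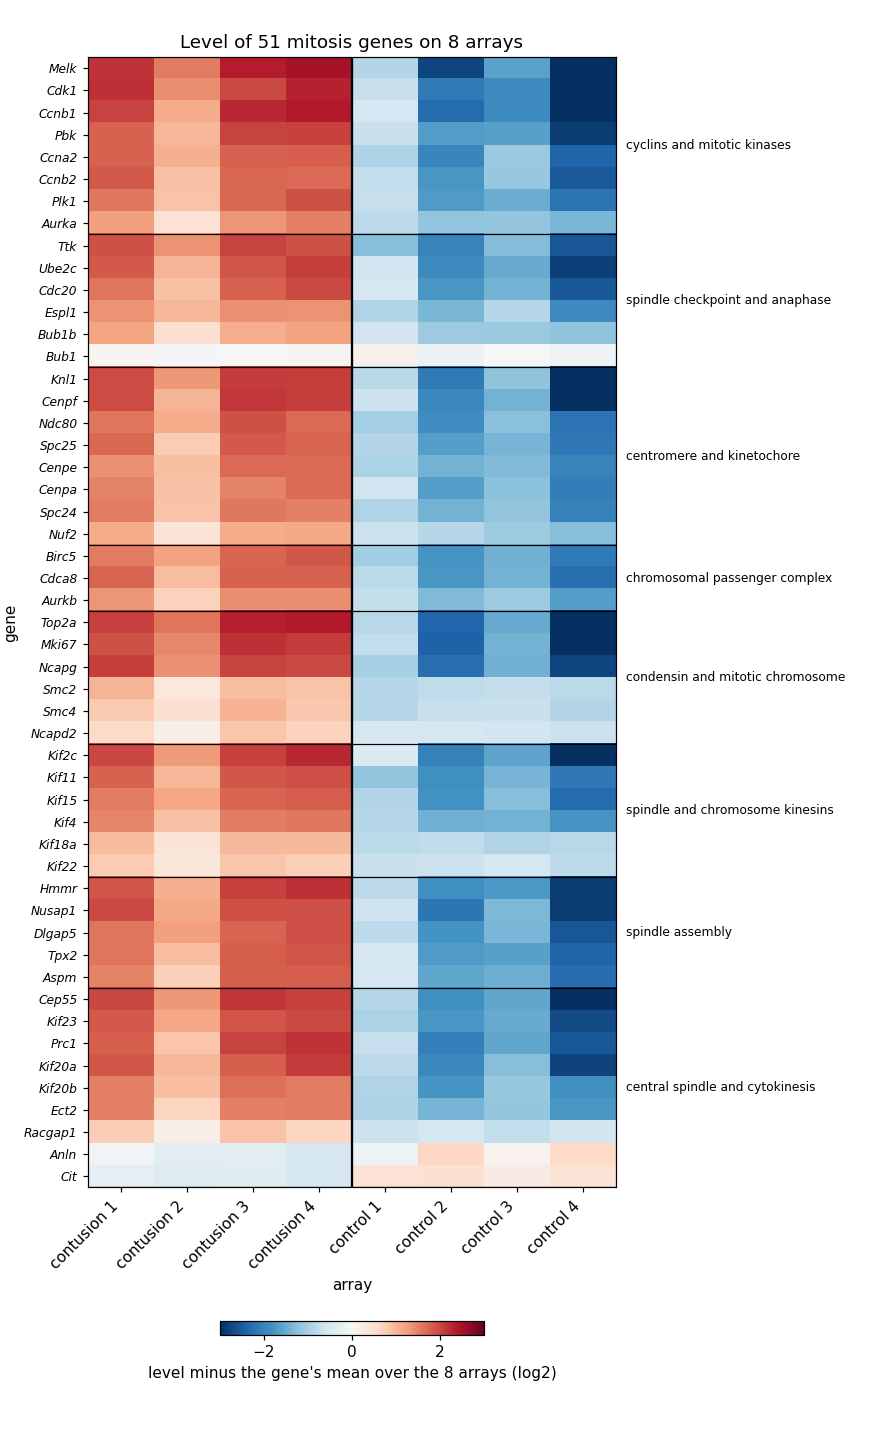
Level of each of the 51 genes (down the page, grouped by role) on each of the 8 arrays (across, contusion left of control), as the log2 level minus the gene's own mean over the 8 arrays; the colour scale ends at 3 in each direction, and lower values take the end colour. The 48 risen genes are red on all 4 contusion arrays, palest on contusion 2, and blue on all 4 control arrays, palest on control 1 for 41 of them; Bub1 is near white throughout, Cit is blue on all 4 contusion arrays and red on all 4 control arrays, and Anln is so too except for control 1, which is pale blue.

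The rises were present within each slide. With slide as a block all 48 stayed called, with a median of 2.92. Every one was positive in both slides, with a median of 3.51 in slide 1 (lowest 1.15) and 2.30 in slide 2 (lowest 1.09). The slide 1 values rest on contusion 1 alone. Those of slide 2 rest on control 1 alone, which was the highest control for 41 of the 48. All 48 were also called in each of the 8 fits that left out 1 array. Normexp background correction with quantile normalization gave the 51 genes a smaller median of 2.32, with the same number called higher.

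Many late cell cycle genes are known to be controlled through a short promoter element with the letters TTTGAA, the cell cycle genes homology region, which binds the MuvB complex, and through CCAAT boxes, which bind NF-Y. RefSeq promoter windows (GRCm38.p6, 250 bases before to 50 after the start) were at hand for 43 of the 51 genes. Searched on both strands, TTTGAA was in the window of 34 of the 43, against 18.5% of all protein-coding genes, and CCAAT in 30 of the 43, against 42.3%. Both motifs were in 27 of the 43 windows, against 7.40% of all, and their letters overlapped in 1. The E2F letters TTTCCCGC or TTTGGCGC were in 4 of the 43, against 2.31%. Of the 72 other mitosis genes described below, 60 had a window. CCAAT was in 40 of these 60, TTTGAA in 27, both in 21 and the E2F letters in 5. CCAAT and the E2F letters were thus of similar frequency in the other mitosis genes, while TTTGAA was less frequent there. These matches are letters in a window and were not tested as binding sites. The 100 bases before the start are printed for 6 risen genes that hold both motifs there, for Melk, which rose most and holds neither in its window, and for Cit, which fell and holds neither. Kif22, which rose 2.48-fold, also holds both motifs in these 100 bases and is not printed. Capitals mark TTTGAA and CCAAT on either strand (TTCAAA and ATTGG are the same letters read from the other strand).
Cdk1, chr10:69352913-69353012 (minus strand): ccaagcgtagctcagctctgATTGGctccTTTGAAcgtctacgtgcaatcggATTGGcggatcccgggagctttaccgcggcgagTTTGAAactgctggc
Cdc20, chr4:118437344-118437443 (minus strand): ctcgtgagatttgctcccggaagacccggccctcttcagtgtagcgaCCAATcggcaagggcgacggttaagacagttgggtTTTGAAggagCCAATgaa
Ube2c, chr2:164769829-164769928 (plus strand): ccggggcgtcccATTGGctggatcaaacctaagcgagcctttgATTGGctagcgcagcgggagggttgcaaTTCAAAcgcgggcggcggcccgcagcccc
Espl1, chr15:102296193-102296292 (plus strand): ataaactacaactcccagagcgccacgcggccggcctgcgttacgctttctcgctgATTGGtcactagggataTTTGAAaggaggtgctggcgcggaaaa
Top2a, chr11:99024190-99024289 (minus strand): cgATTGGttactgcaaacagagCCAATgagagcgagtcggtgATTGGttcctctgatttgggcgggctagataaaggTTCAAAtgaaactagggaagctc
Kif11, chr19:37376282-37376381 (plus strand): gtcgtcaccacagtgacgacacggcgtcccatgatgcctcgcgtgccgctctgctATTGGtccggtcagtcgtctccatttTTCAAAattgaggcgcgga
Melk, chr4:44300817-44300916 (plus strand): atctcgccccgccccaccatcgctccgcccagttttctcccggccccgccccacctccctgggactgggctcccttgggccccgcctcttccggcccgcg
Cit, chr5:115845556-115845655 (plus strand): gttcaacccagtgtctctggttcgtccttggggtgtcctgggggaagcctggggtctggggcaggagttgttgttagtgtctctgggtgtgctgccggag

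In Cdc20 and Espl1 the TTTGAA match lies within the last 30 bases before the start, and in Ube2c, Top2a and Kif11 its reverse complement does. Cdk1 holds 1 match close to the start and another farther upstream, between its CCAAT matches. The window of Anln holds TTTGAA only past the start and no CCAAT, as do those of the risen Knl1, Ndc80 and Kif20b. That of Bub1 holds CCAAT alone, as do those of the risen Ccnb1 and Cenpe. Besides Melk, the risen Nuf2, Birc5, Kif18a and Nusap1 hold neither motif. How these motifs relate to the differences of the genes was not tested.

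All 8 cyclins and mitotic kinases rose, with a median difference of 3.31. Melk had the largest rise of the role and of the 51 genes, with levels of 0.99, 0.39, 1.20 and 1.34 in contused cords, against -2.03, -3.91, -2.78 and -4.51 in control cords. Every contused cord was above every control cord, and the difference was 4.29 ± 0.51, or 19.6-fold (adjusted p = 4.52e-04, limma). Aurka, the kinase of centrosome maturation, had the smallest, with levels of 2.71, 1.93, 2.82 and 3.00 in contused cords, against 0.71, 0.31, 0.31 and 0.13 in control cords. Its control levels lay close together, and the difference was 2.25 ± 0.23, or 4.76-fold (adjusted p = 2.62e-04, limma). Pbk, a mitotic kinase also called TOPK, had levels of 3.93, 3.13, 4.17 and 4.20 in contused cords, against 1.49, 0.46, 0.51 and -0.71 in control cords, a difference of 3.42 ± 0.44 (10.7-fold, adjusted p = 6.36e-04, limma). Here too the groups stood apart, with control 1 nearest to the contused cords. Cdk1, the kinase that drives entry into mitosis, differed by 3.94 ± 0.47, and its partners Ccnb1, Ccna2 and Ccnb2 by 3.90 ± 0.52, 3.19 ± 0.34 and 3.08 ± 0.38. Plk1, which acts at centrosomes, kinetochores and the midbody, differed by 3.03 ± 0.33.

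Among the 6 genes of the spindle checkpoint and of anaphase, 5 rose and Bub1 was not called, with a median of 2.82. Ttk, the checkpoint kinase Mps1, rose most and had levels of 0.62, 0.06, 0.74 and 0.64 in contused cords, against -2.56, -3.30, -2.59 and -3.85 in control cords. All contused cords were above 0 and all control cords well below it, a difference of 3.59 ± 0.30 (12-fold, adjusted p = 1.50e-04, limma). Bub1, the kinase that brings checkpoint proteins to kinetochores, had levels of 0.89, 0.80, 0.83 and 0.91 in contused cords, against 0.95, 0.65, 0.82 and 0.72 in control cords on its brightest probe. These values overlapped, and the difference was 0.07 ± 0.08 (adjusted p = 0.5, limma); its other probes are described with the probes that disagree. Bub1b, the checkpoint protein BubR1, differed by 1.99 ± 0.20. Cdc20, the activator of the anaphase-promoting complex that the checkpoint inhibits, and Ube2c, the ubiquitin-conjugating enzyme of that complex, differed by 3.11 ± 0.42 and 3.39 ± 0.44. Espl1, the protease separase that cleaves cohesin at anaphase, differed by 2.53 ± 0.23.

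All 8 genes of the centromere and kinetochore rose, with a median of 2.94. Knl1, the scaffold that joins checkpoint proteins to microtubule binding, had levels of 1.04, 0.39, 1.17 and 1.16 in contused cords, against -1.75, -3.03, -2.13 and -4.23 in control cords. The contused cords were all above 0 and the control cords spread widely below it, with a difference of 3.73 ± 0.50 (13.2-fold, adjusted p = 7.56e-04, limma). Nuf2, a subunit of the microtubule-binding NDC80 complex, rose least, with levels of 2.12, 1.43, 2.13 and 2.18 in contused cords, against 0.36, 0.16, -0.05 and -0.26 in control cords. Its groups did not overlap, with a smaller difference of 1.91 ± 0.20 (3.76-fold, adjusted p = 2.62e-04, limma). The other subunits of that complex, Ndc80, Spc25 and Spc24, differed by 3.18 ± 0.28, 3.04 ± 0.32 and 2.77 ± 0.26. Cenpa, the histone H3 variant that marks centromeres, differed by 2.78 ± 0.31. Cenpe, a kinetochore motor, and Cenpf, a large kinetochore protein, differed by 2.84 ± 0.25 and 3.58 ± 0.51.

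The 3 genes of the chromosomal passenger complex, which corrects faulty attachments and later moves to the central spindle, rose with a median of 3.11. Birc5, the subunit survivin, had levels of 4.58, 4.22, 4.76 and 4.88 in contused cords, against 1.96, 1.25, 1.57 and 0.90 in control cords. The groups did not overlap, and their means differed by 3.19 ± 0.24 (9.11-fold, adjusted p = 1.18e-04, limma). Aurkb, the complex's kinase, had levels of 1.66, 1.04, 1.73 and 1.74 in contused cords, against -0.37, -0.98, -0.74 and -1.30 in control cords. It had the smallest rise of the 3, 2.39 ± 0.23 (5.24-fold, adjusted p = 2.08e-04, limma), and Cdca8, the subunit borealin, differed by 3.11 ± 0.32.

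Genes of condensin and of the mitotic chromosome showed the widest spread of rises, with 6 of 6 called and a median of 2.64. Top2a, the topoisomerase that untangles sister chromatids, had levels of 5.37, 4.92, 5.65 and 5.70 in contused cords, against 2.49, 0.95, 1.81 and -0.33 in control cords. Its controls spanned a wide range, with control 1 highest and control 4 lowest, and the difference was 4.18 ± 0.54 (18.1-fold, adjusted p = 6.57e-04, limma). Mki67, the chromosome surface protein Ki-67 used to mark cycling cells, had levels of 4.17, 3.72, 4.47 and 4.36 in contused cords, against 1.54, -0.16, 0.86 and -0.80 in control cords. It ordered the controls as Top2a did and differed by 3.82 ± 0.47 (14.1-fold, adjusted p = 5.20e-04, limma). Ncapd2, a subunit of condensin I, had levels of 4.20, 3.82, 4.45 and 4.30 in contused cords, against 3.10, 3.14, 3.06 and 2.98 in control cords. This was the smallest rise among the 48, 1.12 ± 0.13 (2.18-fold, adjusted p = 4.02e-04, limma), on controls that differed little. Smc2 and Smc4, the ATPases shared by both condensins, differed by 1.55 ± 0.15 and 1.54 ± 0.13, while Ncapg, another condensin I subunit, differed by 3.72 ± 0.37.

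All 6 kinesins of the spindle and of chromosomes rose, with a median of 2.93. Kif2c, the microtubule depolymerase MCAK, had levels of -1.32, -2.05, -1.27 and -1.06 in contused cords, against -3.76, -5.35, -4.91 and -6.89 in control cords. It was well above background on only 2 of the 4 control arrays, so its difference of 3.80 ± 0.59 (14.0-fold, adjusted p = 0.00141, limma) rests in part on control values near background. Kif22, a chromosome-bound kinesin also called Kid, had levels of 3.61, 3.19, 3.69 and 3.57 in contused cords, against 2.18, 2.22, 2.34 and 2.06 in control cords. Its values formed a pair of tight groups that differed by 1.31 ± 0.12 (2.48-fold, adjusted p = 1.81e-04, limma). Kif11 (Eg5) and Kif15, which keep spindle poles apart, differed by 3.29 ± 0.27 and 3.14 ± 0.30. Kif4, a chromosome-bound motor, and Kif18a, which limits microtubule length at kinetochores, differed by 2.73 ± 0.22 and 1.66 ± 0.13.

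The 5 spindle assembly genes rose by similar amounts, with a median of 3.27 and a range of 2.91 to 3.59. Hmmr, a spindle pole protein that also binds hyaluronan, had levels of 2.63, 1.80, 2.79 and 2.93 in contused cords, against -0.04, -1.10, -0.98 and -2.10 in control cords. The groups did not overlap, and their means differed by 3.59 ± 0.42 (12.1-fold, adjusted p = 4.32e-04, limma). Aspm, a spindle pole protein mutated in microcephaly, had levels of -1.28, -2.04, -0.97 and -0.94 in contused cords, against -3.29, -4.31, -4.23 and -5.04 in control cords. It rose least here, by 2.91 ± 0.38 (7.52-fold, adjusted p = 6.80e-04, limma). Tpx2, which activates Aurora A, differed by 3.12 ± 0.39, Nusap1, which bundles microtubules near chromosomes, by 3.48 ± 0.45, and Dlgap5, also called HURP, by 3.27 ± 0.35.

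The 9 genes of the central spindle and cytokinesis were the only role with falls: 7 rose, Anln and Cit fell, and the median was 2.81. Cep55, which recruits the abscission machinery to the midbody, had levels of 1.28, 0.57, 1.41 and 1.31 in contused cords, against -1.60, -2.57, -2.29 and -3.98 in control cords. Its groups did not overlap, and their means differed by 3.75 ± 0.46 (13.5-fold, adjusted p = 5.14e-04, limma). Cit, the citron kinase gene, had levels of 0.51, 0.42, 0.45 and 0.32 in contused cords, against 1.24, 1.28, 1.05 and 1.21 in control cords. Every contused cord was below every control cord, with a difference of -0.77 ± 0.07, so control cord was 1.70-fold higher (adjusted p = 2.19e-04, limma), and the fall was present in both slides (-0.67 and -0.84). Anln, anillin, the scaffold of the contractile ring, had levels of 2.66, 2.43, 2.43 and 2.28 in contused cords, against 2.59, 3.38, 2.86 and 3.35 in control cords. The groups overlapped at control 1, and the difference of -0.60 ± 0.18 (adjusted p = 0.0332, limma) was -0.38 with slide as a block (adjusted p = 0.105, limma), which ended the call. Leaving out control 2 or 4 or contusion 2, 3 or 4 ended it too, with differences of -0.59 to -0.49 (adjusted p = 0.0685 or more, limma). Of the others, Prc1, which bundles the central spindle, differed by 3.41 ± 0.43, and the motors Kif23, Kif20a and Kif20b by 3.44 ± 0.35, 3.38 ± 0.42 and 2.81 ± 0.25. Racgap1, the partner of Kif23 in centralspindlin, differed by 1.22 ± 0.14, and Ect2, the exchange factor that activates RhoA at the division plane, by 2.62 ± 0.25.

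**Figure D2:**
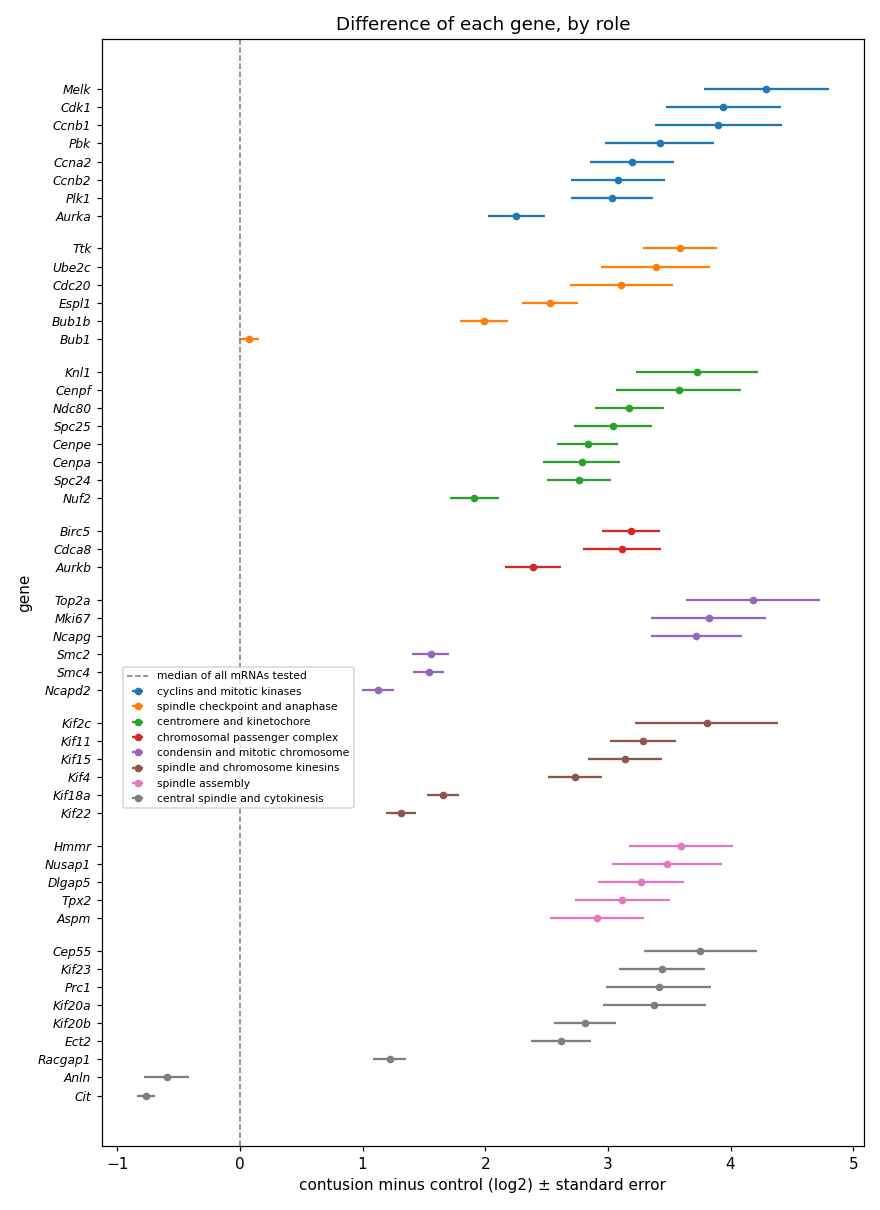
Difference of each gene, contusion minus control on the log2 scale, with limma's standard error as the bar (n = 4 arrays a group); genes run down the page by role, and the dashed line is the median of all mRNAs tested, 0.00. The 48 risen genes lie between 1.12 and 4.29, Bub1 lies at 0.07, and Anln and Cit lie left of the line at -0.60 and -0.77.

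Separate probes of a gene gave the same call for most of the list. Of 122 tested probes 116 were called higher and 3 lower, against 26.5% and 27.2% of all mRNA probes, and 3 were not called. All tested probes of each of the 48 risen genes rose. Among 45 genes with at least 2 tested probes the calls disagreed in 2, Bub1 and Anln, against 29.4% of all such genes. Of the tested probes 11, all of risen genes, were well above background on no control array and give only a bound, such as at least 10.3-fold higher for 1 probe of Ncapg. These 11 passed the filter through contusion alone, so they had to be higher there, and they are included in the counts above. In Cenpf, Dlgap5, Kif2c, Melk and Ttk, with 2 tested probes each, 1 is of this kind. For those genes the agreement of probes is therefore no separate observation. The tested probes of Cdk1 differed in size, at 3.94 and 1.22, and both were called. Of the 124 probes 2, of Cdk1 and Kif20a, were too dim to test.

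The Bub1 probes differed most. They are shown because their calls differ; the first 30 of each probe's 60 bases are given, 5′ to 3′ as the files give them, with no part capitalised. The annotation of each spot gives mm9 coordinates for the first and second of them, both on the minus strand, and none for the third. The first carries the accession NM_009772 and the others NM_001113179, both of them Bub1 transcripts in RefSeq, so the positions count along different transcripts.
Bub1 probe at transcript position 3222, chr2:127626988-127627047: aacaagattaagaccttgcgtaataggcta
Bub1 probe at transcript position 3887, chr2:127626326-127626385: ttactttccacttccatgtctcatctgtca
Bub1 probe with no position given: ccaccatactgatttccacaatgaccatac
Probe p-values come from the fit over all probes. The probe at position 3222 had levels of 0.82, 0.24, 0.93 and 0.87 in contused cords, against -2.20, -4.06, -3.04 and -4.94 in control cords. On this probe Bub1 rose without overlap by 4.27 ± 0.53 (19.3-fold, adjusted p = 4.34e-04, limma), in the range of the other mitosis genes. The probe at position 3887, the brightest and so the one that stood for the gene, differed by 0.07 ± 0.08 (adjusted p = 0.48, limma). The probe with no position had levels of -0.12, -0.39, -0.15 and -0.17 in contused cords, against -0.90, -0.82, -0.90 and -0.78 in control cords, a rise of 0.64 ± 0.08 (1.56-fold, adjusted p = 3.53e-04, limma). With slide as a block the 3 differences were 3.85, 0.03 and 0.69. The mean of the 3 probes gave a called rise of 1.66 for Bub1.

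Of the Anln probes, the one at transcript position 1381 differed by 0.03 ± 0.07 and the one at position 3281 by -0.13 ± 0.09, and neither was called; the fall came from the brightest probe alone. The Cit gene makes a long form with a kinase domain at its start, needed for cytokinesis, and a short form without that domain, known from neurons. Both Cit probes carry the same accession, NM_007708, so the mRNA probes do not separate these forms. The first 30 of their 60 bases are shown to identify them, again with no capitals.
Cit probe at transcript position 6413, chr5:116447727-116447786 (mm9, plus strand): tgggccctgcgatttcctccggagcgattt
Cit probe with no position given: aaccttatctgtttgtgactcacttcaact
The first had levels of 0.20, 0.19, 0.22 and 0.16 in contused cords, against 0.85, 0.73, 0.64 and 0.75 in control cords. Both probes fell without overlap, the first by 0.55 ± 0.06 and the second by 0.77 ± 0.07 (adjusted p = 3.09e-04 and 1.58e-04, limma). Neuronal markers, 7 of 7 of them, were called lower in contused cord, against 25.4% of all tested mRNAs. They had a mean level of 5.50 to 5.72 in contused cords and 6.20 to 6.37 in control cords. Their part in the fall of Cit was not tested. The mean level of the oligodendrocyte markers ordered the controls as the brightest Anln probe did, with control 2 highest, then controls 4, 3 and 1. In both, control 1 alone lay within the range of the contused cords. The part of oligodendrocytes in the fall of Anln was not tested.

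**Figure D3:**
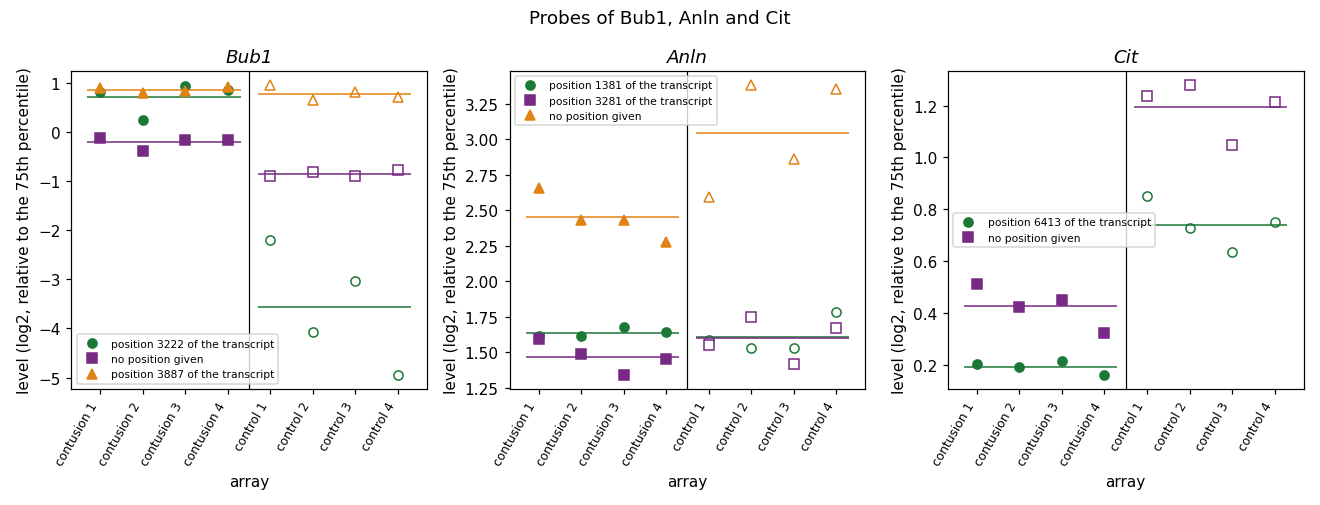
Level of each tested probe of Bub1 (left), Anln (middle) and Cit (right) on each array, in log2 relative to the array's 75th percentile, contusion arrays (filled) left of control arrays (open); each symbol is 1 probe and each line a group mean. Heights of different probes are not comparable. Only the Bub1 probe at position 3222 shows a wide gap between the groups, the Anln probes overlap between groups, and both Cit probes are lower on all 4 contusion arrays.

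The arrays also carry circRNAs, circles made by back-splicing of exons, whose names give their positions. Placed on the RefSeq genes of GRCm38.p6, 128 lay inside exactly 1 of the 51 genes, in 35 genes, and the 106 whose gene strand is known were on that strand. The build of these positions is not given in the sources used here; 97.3% of all circRNA positions lay inside a protein-coding gene, against 35.9% after a shift of 1e+06 bases. Whether a probe separates a circle from the linear RNA of the same exons is not given either. Of 115 tested circRNAs 90 were higher and 7 lower, against 16.2% and 25.7% of all tested circRNAs, and 18 were not called. In the risen genes 85 of 92 were higher and 1 lower. The 6 not called included the only tested circRNAs of Aspm, Aurka and Kif4, which differed by 0.18, 0.39 and 0.25. Of these 92, the 55 that were well above background on all 4 control arrays, and so did not pass the filter through contusion alone, came from 20 genes: 49 were higher and 1 lower, against 15.8% and 26.4% of circRNAs so measured, with a median difference of 1.53. All 13 circRNAs of Racgap1 rose, by 0.72 to 1.62, as did all 10 of Bub1b, by 0.72 to 2.08, and the 5 of Top2a that were well above background on all 4 control arrays, by 2.99 to 4.24.

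The fall among them was in Espl1. Its circRNA at chr15:102312936-102314096 had levels of -0.20, -0.09, -0.61 and -0.33 in contused cords, against 0.41, 0.69, 0.44 and 0.54 in control cords. It fell by 0.83 ± 0.12 without overlap (adjusted p = 0.00109, limma), while the Espl1 circRNA at chr15:102319412-102320766 rose by 2.34 ± 0.47 (adjusted p = 0.00492, limma) and the Espl1 mRNA rose by 2.53. The rising one was well above background on 2 of the 4 control arrays. Both circRNAs of Bub1 were called higher, by 3.28 ± 0.57 and 2.31 ± 0.35, but they were well above background on only 1 and 2 of the 4 control arrays, so these sizes rest in part on control values near background. The 5 of Anln differed by -0.09 to 0.23 and were not called.

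Of the 16 tested circRNAs of Cit, 14 were well above background on all 4 control arrays; 1 of these rose, 6 fell and 7 were not called. The other 2 were well above background on all 4 contusion arrays and on no control array, so they passed the filter through contusion alone and had to be higher there. The circRNA at chr5:115859198-115873994 had levels of -3.82, -4.10, -3.30 and -3.39 in contused cords, against -6.63, -6.61, -7.34 and -7.56 in control cords. Contused cord was at least 3.52-fold higher. The circRNA at chr5:115859198-115863059, which starts at the same base, was at least 3.39-fold higher in contused cord. The next circRNA along, which begins just before the end of the first of these, at chr5:115873852-115908821, had levels of 2.47, 2.46, 2.52 and 2.44 in contused cords, against 3.43, 3.52, 3.20 and 3.44 in control cords. It fell by 0.93 ± 0.08 (adjusted p = 1.63e-04, limma) without overlap. The 6 tested circRNAs that start past the middle of the gene differed by -0.77 to -0.13, and 4 of them were called lower. The measured rise, of 0.40 ± 0.13 at chr5:115846347-115863059, overlapped between groups and lost its call with slide as a block (adjusted p = 0.132, limma), as did a fall of 0.18 at chr5:115846284-115886807 (adjusted p = 0.118, limma).

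**Figure D4:**
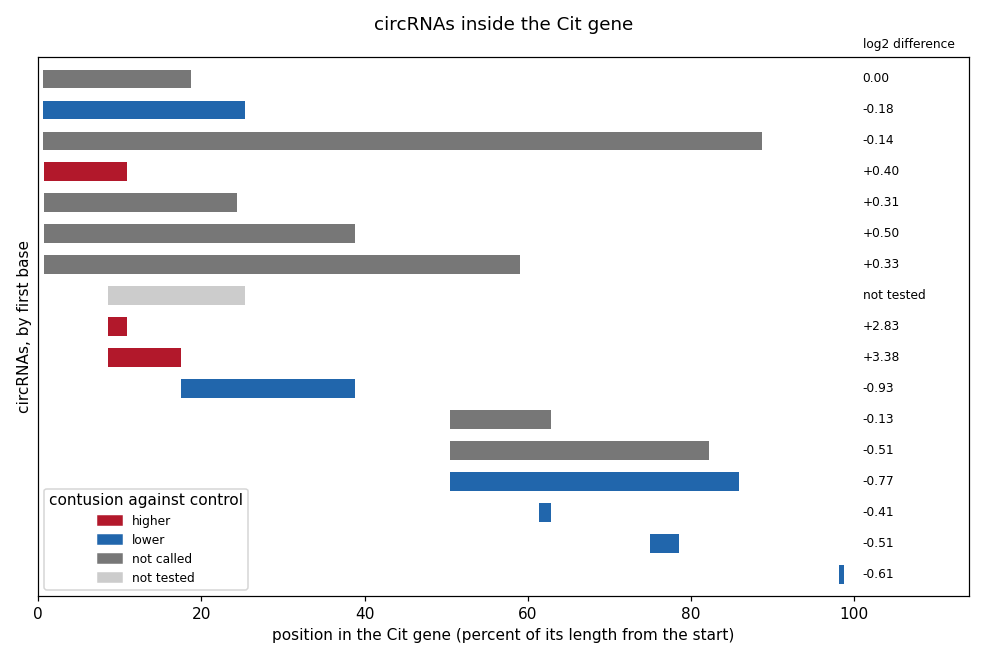
The 17 circRNAs inside the Cit gene, each drawn as a bar over the part of the gene it spans (percent of gene length from the start), ordered by first base, coloured by the limma call and labelled with the log2 difference, contusion minus control. The 2 labelled +2.83 and +3.38 were not well above background on any control array. Their differences are therefore open-ended, and they entered only through contusion. The remaining called rise overlapped between groups and lost its call with slide as a block. The called falls begin at 17.5% of the gene or later, except 1 of -0.18 that spans the 2 named first.

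Other genes of mitosis were compared through a list of 72, all measured. Of these 58 rose, 2 fell and 12 were not called, against 25.8% of all tested mRNAs called higher and 25.4% called lower, with a median difference of 1.58. The largest rises were of Pimreg, a mitotic regulator bound by CALM, of Ska1, a microtubule-binding kinetochore subunit, and of Cdca5, the cohesin protector sororin. Pimreg had levels of 2.68, 1.97, 2.85 and 2.90 in contused cords, against -0.10, -1.39, -1.01 and -3.57 in control cords. Ska1 had levels of 0.56, -0.29, 0.53 and 0.64 in contused cords, against -2.55, -3.96, -3.16 and -4.98 in control cords. Cdca5 had levels of 1.64, 1.12, 1.87 and 1.83 in contused cords, against -1.47, -2.45, -1.80 and -3.18 in control cords. In all 3 the groups did not overlap. The differences were 4.12 ± 0.66, 4.03 ± 0.49 and 3.85 ± 0.36 (adjusted p = 0.00166, 4.92e-04 and 1.96e-04, limma). The genes that fell were Bub3, a checkpoint protein that docks Bub1 at kinetochores, by 0.40 ± 0.10 (adjusted p = 0.0107, limma), and Zwint, a kinetochore protein also found in neurons, by 0.36 ± 0.07 (adjusted p = 0.0037, limma). The mean over all probes of Zwint gave a called rise of 0.46 instead, and that of Bub3 was not called, so neither direction holds for every probe choice.

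Of 17 regulators of transcription in the late cell cycle 11 rose and 6 were not called, beside the same 25.8% higher over all tested mRNAs, with a median of 0.40 (limma; before adjustment 2 were lower at p under 0.05; the 3 furthest below control, Rbl2, Lin52 and Lin37, had adjusted p-values of 0.127, 0.0777 and 0.0638). The largest rises were of E2f8 and E2f7, the atypical repressors, and of Foxm1, the activator of late cell cycle genes. E2f8 had levels of 1.16, 0.99, 1.42 and 1.32 in contused cords, against -1.49, -2.43, -1.74 and -2.18 in control cords, a difference of 3.18 ± 0.20 (adjusted p = 8.76e-05, limma). Foxm1 had levels of 2.71, 2.14, 2.85 and 2.91 in contused cords, against 0.33, -0.39, -0.08 and -0.59 in control cords, a difference of 2.84 ± 0.23 (adjusted p = 1.47e-04, limma). E2f7 differed by 2.40 ± 0.19 (adjusted p = 1.29e-04, limma), and none of the 3 overlapped between groups. Of the MuvB subunits, the shared core that binds the TTTGAA element, Lin9 and Lin54 differed by 0.61 ± 0.07 and 0.32 ± 0.07 and were called, while Lin37, Lin52 and Rbbp4 were not.

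The risen genes also ordered the arrays within each group. Their mean level was 2.11, 1.45, 2.22 and 2.25 in contused cords, against -0.26, -1.13, -0.77 and -1.72 in control cords. Contusion 2 was the lowest contused cord for 48 of the 48, control 4 the lowest control for 45 and control 1 the highest for 41. The controls spread over more than the contused cords for 38 of the 48, with a median range of 1.48 in control cords and 0.80 in contused cords. Genes with a wide control range had large differences: over the 48 genes the range among controls and the difference had a Pearson correlation of 0.906 and a Spearman correlation of 0.902. These genes share the same 8 arrays, and the control values enter both quantities. Leaving out control 4 gave the 51 genes a median of 2.84, and leaving out control 1 gave 3.37.

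Markers of monocytes and macrophages moved with them. All 12 of these markers rose, all were well above background on all 8 arrays, and their mean level was 4.29, 4.06, 4.18 and 4.34 in contused cords, against 2.21, 1.46, 2.10 and 0.52 in control cords, with control 1 highest and control 4 lowest, as for the mitosis genes. Microglial markers rose in 6 of 9, with a mean level of 3.58 to 3.91 in contused cords and 2.30 to 3.09 in control cords. For them too control 4 was the lowest control and contusion 2 the lowest contused cord, but control 3 was the highest control. Endothelial markers rose in 7 of 8. Astrocyte markers rose in 4 of 8 and fell in 2, with control 4 again lowest at 5.91. Markers of oligodendrocyte precursors rose in 4 of 8 and fell in 1. Red blood cell markers rose in 5 of 7, with a mean level of 4.55 to 5.59 in contused cords; control cords began at 3.52 on control 4, and control 3 overlapped the contused cords. Markers of pericytes and fibroblasts rose in 3 of 8, with a mean level of 4.06 to 4.25 in contused cords and 2.81 to 4.09 in control cords. Neutrophil markers rose in 2 of 9, lymphocyte markers in 2 of 7, and ependymal markers rose in 1 of 5 and fell in 2. Oligodendrocyte markers rose in 1 of 8 and fell in 2. Beside all these counts, 25.8% of all tested mRNAs were called higher and 25.4% lower. The rises of neutrophil, lymphocyte and ependymal markers and the falls of astrocyte and oligodendrocyte markers were near those shares. Skeletal muscle markers, of which limma called 0 of 9 (1 at p under 0.05 before adjustment), were highest on contusions 1 and 2; without those arrays all 48 rises stayed called. The part of each cell type in the rise of the mitosis genes was not tested.

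**Figure D5:**
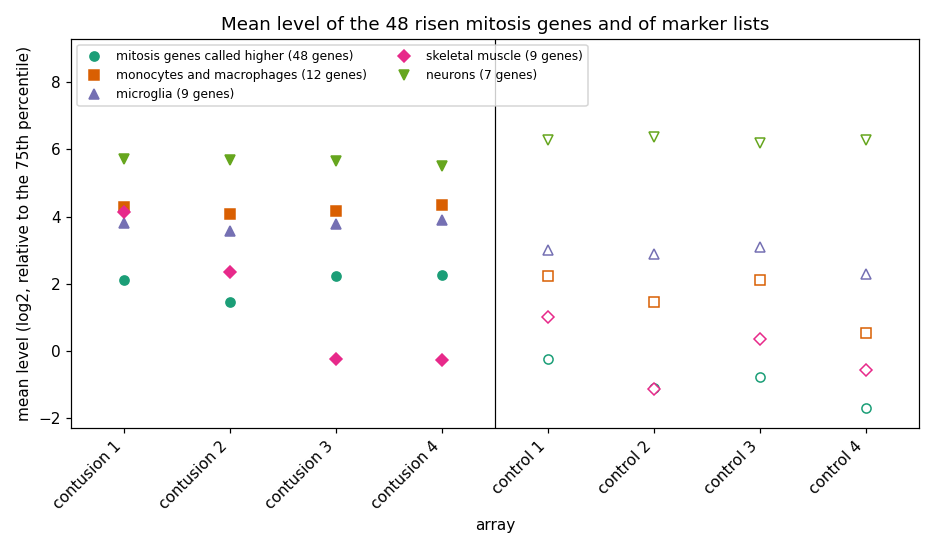
Mean level over each gene list on each array, in log2 relative to the array's 75th percentile, contusion arrays (filled) left of control arrays (open). The 48 risen mitosis genes sit at 1.45 to 2.25 on contusion arrays and at -1.72 to -0.26 on control arrays. Control 4 is lowest for them, as for monocyte and macrophage markers at 0.52 and microglial markers at 2.30. Skeletal muscle markers are high on contusions 1 and 2 only.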

How the data were processed

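Agilent single-colour arrays of 4 contused and 4 control mouse spinal cords were analysed. Per the file headers, Agilent's Feature Extraction subtracted background from the deposited intensities and detrended them within each array, with no normalization across arrays. Version 10.7 and limma are named by the submitters' processing notes, and 12.0.3.1 by the headers. The authors' deposited series table holds log2 values of the same arrays (Spearman correlation of 1 with the log2 intensity, column medians of 5.40), and served as an alternative. Of 172336 spots per array in the headers 155279 were read, and 17057 were not analysed here.

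Each level subtracts from the log2 processed intensity the 75th percentile of its array, taken over 150305 non-control probes and equal to 203 to 252 intensity units. Outlier spots (6 to 53 an array) were left out, and Feature Extraction's deposited flags of 0 or 1 told which probes were well above background. A probe was kept if so flagged on 4 or more of 8 arrays, and the brightest stood for a gene. The contrast of contusion with control was fitted by limma 3.58.1 under R 4.3.3 (lmFit, eBayes, two-sided) with all RNAs in 1 fit, and again over all probes; the fit was tested on simulated data. The number of arrays limits the precision. Each array is a separate mouse by the design text.

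The genes, lists and tests were chosen with earlier results of these data known. In each role the genes with the largest and smallest difference are given array by array, with Cit, Top2a, Pbk, Mki67 and any gene that fell, was not called or had probes that disagree; of other lists, the 3 largest rises and every fall. Other genes and circRNAs given with values were chosen after their values were seen. The files carry replicate numbers, but same-numbered arrays did not deviate together (correlations of -0.30, -0.01, 0.00 and -0.05 over 89040 RNAs), so no pairing was used. A fold against a group with no array well above background is a bound, computed against the lowest level well above background on each array. Promoter windows and gene positions are RefSeq's, GRCm38.p6. Alternatives covered background correction, scaling, the dim-probe filter, slide, replicate number, single replicates and the choice of probe.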

Additional observations from a re-analysis of the deposited data

Results flagged for a closer look

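Among 118 groups of 4 arrays examined (59 named genes, each in contused and control cord), 19 held 1 array whose gap to the nearest of the others exceeded 0.829 of the group's range. Chance gives this in about 1 of 20 groups, and these groups share the same arrays, so the counts are not independent. In every one of the 19 the array was contusion 2, the lowest contused cord. Divided by the group's range, the gap was as follows for 17 of the mitosis genes: Ccna2 (0.944), Ccnb2 (0.853), Bub1b (0.836), Espl1 (0.909), Cenpf (0.848), Knl1 (0.831), Nuf2 (0.924), Spc24 (0.915), Spc25 (0.877), Aurkb (0.893), Cdca8 (0.971), Ncapg (0.877), Kif11 (0.84), Kif18a (0.945), Nusap1 (0.923), Ect2 (0.983) and Cep55 (0.85). It was 0.880 for Ska1 and 0.909 for E2f7. Ect2 had 0.33 on contusion 2 and 1.21 to 1.22 on the other contused cords, and Cdca8 had 2.42 and 3.25 to 3.27. All of these genes rose with and without contusion 2.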

How the results depend on the processing

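For 59 named genes under 19 alternatives, 1091 values kept their direction and side of the threshold, 27 lost the call, 1 gained it and 1 turned its direction, and 37 of the 51 mitosis genes did so under every alternative run for them. The count of mitosis genes called higher was 36 with contusion 1 as the only contused cord, 47 when probes had to be well above background on all 8 arrays, which drops Kif2c, and 48 or 49 otherwise. The count of genes called lower, 2 in all, was 1 with no filter on dim probes, slide as a block, contusion 1 alone, contusions 1 and 2 left out or the mean of probes, and 1 to 2 with 1 array left out, as Anln lost its call. The probes of 2 genes disagreed; the count was 1 with slide as a block or contusions 1 and 2 left out, 12 with contusion 1 alone, and 1 to 2 with 1 array left out. The other mitosis genes called lower, 2 in all, were 4 under normexp or the deposited table and 0 with contusion 1 alone or the mean of probes; the last reversed Zwint to 0.46. Regulators called higher fell to 6 with contusion 1 alone, against 11. The circRNAs called higher, 90 in all, were 50 when probes had to be well above background on all 8 arrays, a filter that leaves fewer to test, and 49 with contusion 1 alone, which also gave 4 lower against 7. The lone cord in that fit is assumed to vary like the controls. Causes of the other shifts were not tested. Replicate numbers do not pair the arrays; with replicate number as a block, 48 mitosis genes rose, 1 fell, the probes of 1 disagreed, 8 regulators and 88 circRNAs were higher. Signal over background limits Kif2c and the probes and circRNAs given as bounds, and 4 arrays a group limit small differences such as those of Anln, Bub3 and Zwint.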
